A study of Homo sapiens with 20 samples.

Results

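Estradiol-treated cells of the line SUM44 were compared with themselves over time: 4 arrays taken 24 h after estradiol (E2) were set against 4 arrays taken 3 h after it. These 8 of the 20 arrays in the series were chosen by their titles, which carry the time, the agent and a replicate letter from A to D. SUM44 is an established human cell line from an invasive lobular breast carcinoma, so the data describe 1 line. All cells, controls included, had first spent 3 days without hormone in charcoal-stripped serum. The E2 groups then received 1 nM E2, the vehicle groups 0.01% ethanol, and a baseline group was taken at 0 h with neither. The strength of the stripped serum is given as 2% in one place of the descriptions and 10% in another. On the 4 arrays titled as E2 at 24 h the treatment field reads baseline, while the title and description name E2. The series text calls each group of 4 a biological quadruplicate, without naming separate cultures or days, so the p-values measure the spread between these samples.

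E2 acts mainly through the estrogen receptor, a transcription factor encoded by ESR1 that binds DNA once it holds the hormone. Some targets answer within the first hours and fade, among them regulators of transcription and of growth factor signals, and others build up over a day as secondary factors and the cell cycle follow. In breast cancer cells that have been starved of estrogen, its return is known for bringing resting cells back into the cell cycle.

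Levels are log2 RMA values, and every change is the log2 difference of group means, 24 h minus 3 h, followed by its standard error from a limma fit over all 20 arrays. A gene is said to have risen or fallen where its Benjamini-Hochberg adjusted p, over 11963 genes, was below 0.05. Levels below 6.11, under which the lowest 25% of genes lie, are called dim. The number of arrays limits the precision. Correlations between arrays were 0.9978 to 0.999 within an E2 time and 0.9903 to 0.9916 between the E2 times. Markers of luminal breast cells were high on all E2 arrays, with KRT18 (its probe set may cross-hybridise) at 13.98 at both times, and the mean of the 10 luminal markers lay between 12.56 and 13.06. Of 13 stromal markers 9 were dim at both times, of 15 immune and endothelial markers 11, and of 6 basal markers 4. Of these lists 1 stromal and 2 immune or endothelial markers rose between the E2 times and 0 markers fell. The list means of single E2 arrays ran from 5.29 to 5.46 for stromal, 5.55 to 5.71 for immune and endothelial, and 5.47 to 5.76 for basal markers. COL1A1, a stromal collagen, rose by 0.12 to 8.57 (its probe set may cross-hybridise), and the mean of its 4 probe sets changed by -0.19. E-cadherin, CDH1, which lobular tumours typically lose, had a level of 9.80 at 3 h and 9.28 at 24 h.

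Between 3 h and 24 h of E2, 5236 genes changed, 43.8% of those tested. Of these 2666 rose (22.3% of all genes) and 2570 fell (21.5%). With vehicle over the same hours 16.1% of all genes rose and 12.8% fell. Every list count below is to be read beside these shares. Most changes were small: 383 genes (3.2%) rose and 369 (3.08%) fell by at least 1.5-fold. The 4 arrays at 24 h lay wholly on one side of the 4 at 3 h for 4681 genes (39.1%), above for 2340 (19.6%) and below for 2341 (19.6%). In bulk samples, fewer cells of a kind and less RNA per cell cannot be told apart.

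The largest increase was that of MMP26, a matrix metalloproteinase. Its arrays A to D read 5.53, 5.90, 5.79 and 5.75 at 3 h and 9.47, 9.47, 9.34 and 9.18 at 24 h, a rise of 3.62 ± 0.10 (adjusted p = 9.6e-16). All 4 early arrays were dim and the lowest late array lay far above them. With vehicle the change was -0.12.

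A pair of S100 genes also rose. S100A7, the S100 protein psoriasin, read 8.68, 8.80, 8.83 and 8.97 at 3 h and 11.69, 11.82, 11.69 and 11.69 at 24 h, a rise of 2.90 ± 0.08 or 7.47-fold (adjusted p = 3.1e-16). The groups were far apart, array D being the highest at 3 h and array B at 24 h. S100A8, a partner subunit of calprotectin, read 9.76, 9.76, 9.66 and 9.60 at 3 h and 11.40, 11.47, 11.44 and 11.43 at 24 h, and rose by 1.74 ± 0.05. Of 29 measured S100 and epidermal genes, however, 9 rose (22.3% of all genes), 7 fell (21.5%) and 8 were dim. Their median was 0.06 beside 0.01 over all genes. S100A8 also rose with vehicle, by 0.64, while S100A7 fell there by 0.50.

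AGR2, a protein disulfide isomerase of secretory epithelia, was already high and went higher. Its arrays read 12.15, 12.24, 12.11 and 12.10 at 3 h and 13.64, 13.58, 13.65 and 13.62 at 24 h, a rise of 1.47 ± 0.03 (2.78-fold, adjusted p = 5.6e-17). The spread at each time was narrow, and AGR2 fell by 0.28 with vehicle. PDZK1, a scaffold protein known as an estrogen target, read 9.57, 9.49, 9.63 and 9.62 at 3 h and 11.59, 11.53, 11.57 and 11.56 at 24 h. It rose by 1.99 ± 0.11, and its 3 h arrays had already left the baseline mean of 7.66. EGFL6, a secreted matrix protein, rose by 2.24 ± 0.10, OLFML3 by 1.81 ± 0.08 and the vitamin B12 carrier TCN1 by 1.80 ± 0.06. DOCK10 rose by 2.43 ± 0.11 from a dim level of 4.68. The hepatocyte growth factor receptor MET rose by 1.22 ± 0.04 on its brightest probe set, and all 4 rose.

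Among the large decreases were genes whose arrays stood above the baseline at 3 h. GDF15, a stress-induced cytokine of the TGF-beta family, read 9.40, 9.31, 9.46 and 9.55 at 3 h and 6.24, 6.24, 6.20 and 5.82 at 24 h. It fell by 3.31 ± 0.10 (9.89-fold, adjusted p = 1.7e-15) and by 0.72 with vehicle. This probe set may cross-hybridise, and 1 of the 2 probe sets of GDF15 was called. Array D stood 0.41 below the other late arrays, and without both D arrays the fall was 3.16.

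RASGRP1, an exchange factor that activates Ras, read 10.87, 10.82, 10.72 and 10.64 at 3 h and 8.60, 8.60, 8.51 and 8.44 at 24 h, and fell by 2.22 ± 0.08 (4.67-fold, adjusted p = 6e-14). All late arrays were nonetheless well above the baseline mean of 6.44. HSD11B2, which inactivates cortisol, read 9.27, 9.38, 9.21 and 9.07 at 3 h and 7.15, 6.77, 6.88 and 6.48 at 24 h, and fell by 2.41 ± 0.11 from a peak whose baseline mean was dim at 5.74. Array D was the lowest at both times, yet the groups did not overlap. KAZN, a desmosome-associated protein gene, fell by 2.34 ± 0.05, and GADD45B, a stress sensor, fell by 1.96 ± 0.05, with all 4 of its probe sets lower.

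Other genes fell past where they had started. CRISPLD2, a secreted protein gene, stood at 7.72 at baseline, 8.79 at 3 h and 6.34 at 24 h, a fall of 2.45 ± 0.05. GPRC5A, a retinoic acid-induced receptor gene, went from 9.16 to 6.85 against a baseline of 8.94, and the protein kinase C gene PRKCD from 8.54 to 6.39 against 6.80. With vehicle at 3 h GPRC5A stood higher, at 9.72, and PRKCD at 6.92. A further group had barely moved by 3 h: GSTA3, a glutathione transferase, stood at 9.68 at baseline, 9.60 at 3 h and 7.66 at 24 h, and HOPX, a small homeodomain protein gene, at 8.50, 8.43 and 6.58. SERHL2 fell by 2.65 ± 0.04, on a kind of probe set that may detect other transcripts. The calcium channel subunit gene CACNA2D3 fell by 2.64 ± 0.06 to a dim level, and the flippase gene ATP8A2 fell by 2.20 ± 0.06.

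**Figure D1:**
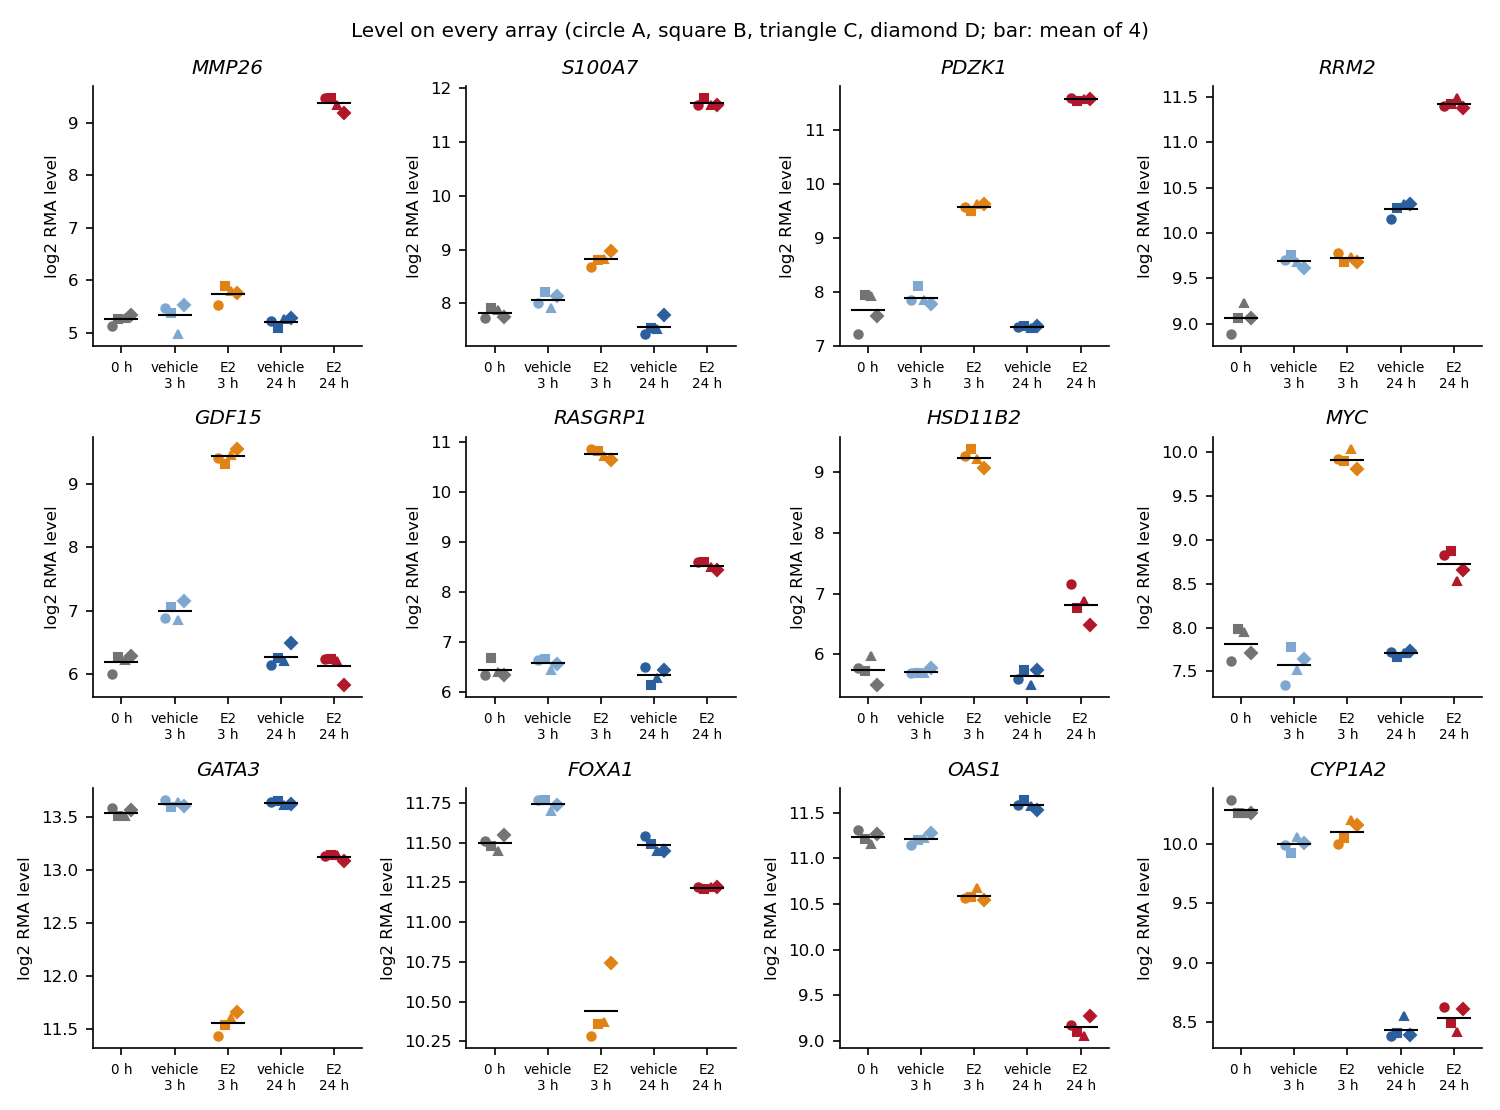
Log2 RMA level (vertical axis) of 12 genes on all 20 arrays, by group (horizontal axis); each point is 1 array, marked by its replicate letter, and the bar is the mean of 4. The 4 arrays of E2 at 24 h lie wholly above or below the 4 at 3 h in all 12 panels, with MMP26 between 9.18 and 9.47 at 24 h and GDF15 between 5.82 and 6.24.

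The E2 arrays were also placed against the 4 baseline arrays. Vehicle arrays do not enter these orders, and vehicle alone moved some genes by 3 h. KLF4 peaked at 3 h, with means of 7.95 at baseline, 9.0 with vehicle and 9.13 with E2. For RASGRP1 these means were 6.44, 6.58 and 10.76. All of these groups were treated alike before E2, and no test was made of the order, since the same arrays enter each step. Of 4458 genes that were called and whose E2 arrays did not overlap, 746 fell late and 682 rose late, that is, their 3 h arrays still overlapped the baseline arrays while their 24 h arrays did not. Of the genes with a peak at 3 h and a later fall, 457 overlapped the baseline again at 24 h and 323 were still above it. Of those with a trough at 3 h and a later rise, 484 overlapped the baseline again and 343 were still below it. Steps in 1 direction at both times numbered 292 upward and 349 downward. In 245 genes the arrays crossed from below the baseline to above it, and in 219 from above to below. The remaining 318 followed none of these orders.

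Among the 751 of them with a change of at least 1.5-fold, late rises were most frequent, at 120. Next came 90 peaks still above baseline, 82 crossings upward, 81 crossings downward, 79 late falls and 78 upward steps. Downward steps numbered 61, troughs still below baseline 58, and peaks and troughs overlapping the baseline again 57 and 40. The remaining 5 followed none of these orders. AGR2, TCN1, SPC25 and SEMA3C rose late. S100A7, PDZK1, RRM2 and CTSD, the protease cathepsin D, rose in steps. RASGRP1, MYC, SMAD7 and TGFA peaked and remained above baseline. GATA3, FOXA1, DLX2 and TWIST1 had a trough and remained below it.

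**Figure D2:**
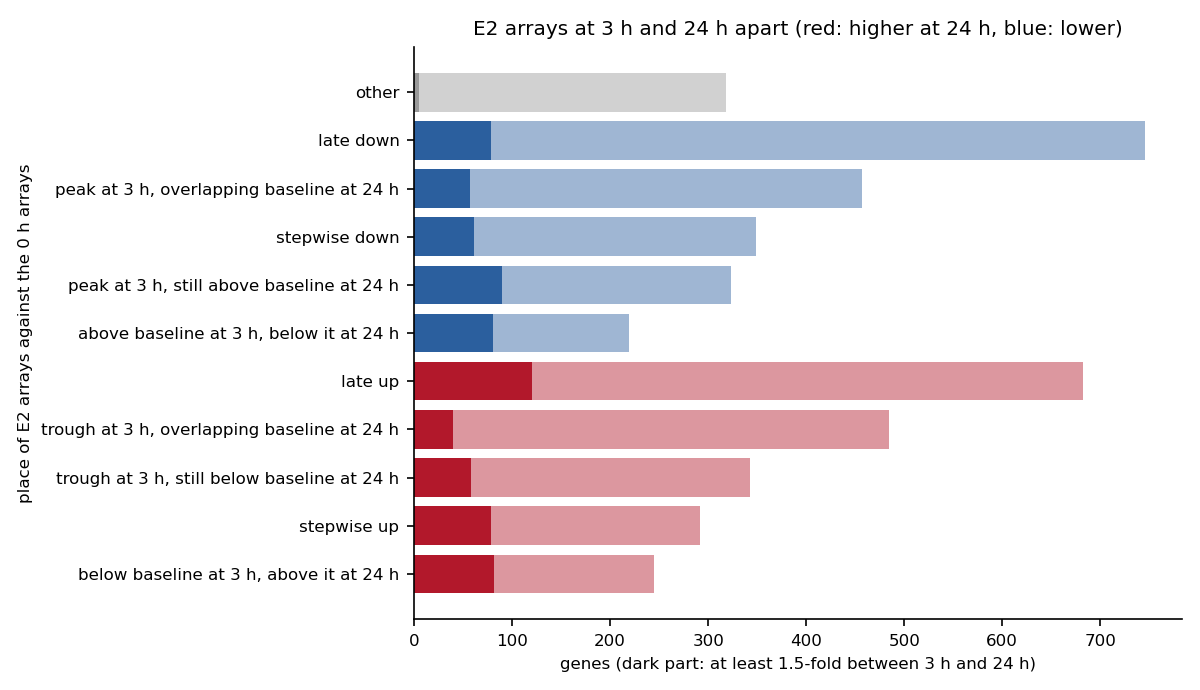
Number of genes (horizontal axis) in each order of the baseline, E2 3 h and E2 24 h arrays (vertical axis), among 4458 genes called between the E2 times whose E2 arrays did not overlap; the dark part of each bar counts genes that changed at least 1.5-fold. Late falls (746) and late rises (682) are the largest classes. Vehicle arrays are not part of these orders.

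Early response genes were among those that fell. MYC, the growth-promoting transcription factor, read 9.92, 9.90, 10.04 and 9.81 at 3 h and 8.83, 8.88, 8.53 and 8.66 at 24 h, and fell by 1.19 ± 0.09 (adjusted p = 2.8e-09). The groups of arrays did not overlap, and the late mean of 8.72 was still above the baseline mean of 7.82. CCND1, cyclin D1, which opens the G1 phase, read 12.83, 12.80, 12.77 and 12.78 at 3 h and 11.96, 11.90, 11.95 and 11.64 at 24 h, a fall of 0.93 ± 0.05 toward a baseline mean of 11.33. EGR3, a zinc-finger factor, read 8.17, 7.69, 7.98 and 7.86 at 3 h and 7.53, 7.43, 7.49 and 6.82 at 24 h, and fell by 0.60 ± 0.13 (adjusted p = 7.2e-04). That is a small part of its distance from a dim baseline of 4.24, and array D at 24 h was well below the rest: without both D arrays the fall was 0.46. For EGR3 the vehicle change was -0.45, and the difference between the changes did not pass (adjusted p = 0.57).

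Of 27 immediate-early genes, 13 fell and 6 rose with E2 (21.5% and 22.3% of all genes; median -0.07, beside 0.01), while with vehicle 4 fell and 12 rose. FOSL2, an AP-1 subunit, fell by 1.01 ± 0.05 with E2 and rose by 0.45 with vehicle. Feedback inhibitors of Ras and MAP kinase signalling went both ways: of 14, 5 rose and 4 fell (22.3% and 21.5% of all genes). SPRY4, which damps receptor tyrosine kinase signals, fell by 1.38 ± 0.06, and RGS2, a brake on G protein signals, rose by 1.46 ± 0.07 from 7.27 toward a baseline of 9.88. In the TGF-beta family of 28 genes, 9 rose and 7 fell (22.3% and 21.5% of all genes). SMAD7, an inhibitor of the pathway, read 11.07, 11.20, 11.15 and 10.94 at 3 h and 9.43, 9.36, 9.33 and 9.33 at 24 h, and so fell by 1.73 ± 0.05. The receptor gene TGFBR2 moved the other way and rose by 1.15 ± 0.06 from 7.21, below its baseline mean of 8.83, with 1 of its 2 probe sets called.

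Of 42 receptor tyrosine kinase and ligand genes, 19 fell and 10 rose with E2 (21.5% and 22.3% of all genes), with a median of -0.04. With vehicle 12 fell and 5 rose, with the same median of -0.04. TGFA, an EGF receptor ligand, fell by 1.51 ± 0.04 from 9.61 to 8.11, close above its baseline of 7.92. VEGFA, the vascular growth factor, fell by 0.71 ± 0.04, and the receptor gene ERBB3 rose by 0.59 ± 0.04. RET, a receptor kinase, fell by 0.57 ± 0.03 on its brightest probe set, while 2 others of its 3 probe sets were called higher and the mean of the 3 changed by -0.04. Of 34 genes of glycolysis and the hypoxia response 14 fell and 10 rose with E2, and 14 fell and 5 rose with vehicle. The glucose transporter gene SLC2A1 fell by 1.02 ± 0.04, back onto its baseline arrays, and PFKFB3, a regulator of glycolysis, fell by 0.98 ± 0.05.

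Genes of DNA replication rose together. Of 53 measured genes of G1/S and replication, 46 rose and 0 fell (22.3% and 21.5% of all genes), with a median of 0.51. The median of their mean levels was 9.06 at baseline, 9.0 at E2 3 h and 9.64 at E2 24 h. RRM2, the regulated subunit of ribonucleotide reductase, read 9.78, 9.68, 9.74 and 9.68 at 3 h and 11.40, 11.42, 11.49 and 11.38 at 24 h. It rose by 1.70 ± 0.06 (3.24-fold, adjusted p = 1.2e-14), with no array near the other group. E2F8, an E2F-family repressor, read 8.22, 8.13, 8.29 and 8.04 at 3 h and 9.84, 9.80, 9.98 and 9.82 at 24 h, a rise of 1.69 ± 0.06. It had stood at 8.95 at baseline and so went from below to above it. TYMS, thymidylate synthase, rose by 1.23 ± 0.04 and RRM1, the large reductase subunit, by 0.68 ± 0.02.

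With vehicle the same list did not move one way: 8 of 53 rose (16.1% of all genes did) and 15 fell (12.8%), with a median of -0.06. The difference between the E2 and vehicle changes passed and was positive for 46 of the 53 (16.5% of all genes) and negative for 0. Of the genes named above, RRM2 also rose with vehicle by 0.58, E2F8 by 0.32 and RRM1 by 0.19, each less than with E2. The helicase genes MCM2 to MCM7, chosen here after their values were seen, did not rise with vehicle. With E2 MCM2 rose by 0.66, MCM3 by 0.67, MCM4 by 0.48, MCM5 by 0.67, MCM6 by 0.63 and MCM7 by 0.47. With vehicle MCM3 fell by 0.20, MCM4 by 0.24, MCM5 by 0.43, MCM6 by 0.41 and MCM7 by 0.19, and MCM2 changed by -0.14 (adjusted p = 0.1).

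Mitotic genes also rose, but vehicle moved them as well. Of 51 measured G2/M genes, 45 rose and 2 fell with E2 (22.3% and 21.5% of all genes), with a median of 0.69. With vehicle 42 rose and 2 fell (16.1% and 12.8% of all genes), with a median of 0.47. The median of their mean levels was 8.56 at baseline, 8.71 at E2 3 h and 9.37 at E2 24 h. ASPM, a spindle pole protein, read 9.61, 9.55, 9.51 and 9.44 at 3 h and 10.54, 10.54, 10.59 and 10.53 at 24 h, a rise of 1.02 ± 0.04 against 0.64 with vehicle. NDC80, a kinetochore protein, read 7.29, 7.20, 7.30 and 7.08 at 3 h and 8.29, 8.24, 8.25 and 8.05 at 24 h. Array D was the lowest at both times, and the rise of 0.99 ± 0.06 was close to the 0.95 with vehicle (difference 0.04, adjusted p = 0.74).

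Over the G2/M list the difference between the changes passed and was positive for 34 genes and negative for 4 (16.5% and 17.8% of all genes). SPC25, of the same kinetochore complex as NDC80, rose by 1.54 ± 0.06 with E2 and 0.78 with vehicle. NUSAP1, a spindle microtubule protein, rose by 0.98 and 0.72, and DLGAP5 by 1.02 and 0.87, the latter without a called difference (adjusted p = 0.16). The 2 genes that fell with E2 are named after seeing their values: CDCA8, a subunit of the chromosome passenger complex, fell by 0.53 ± 0.05 but rose by 0.34 with vehicle, and the phosphatase gene CDC25B fell by 0.52 ± 0.03 and by 0.38. Of 20 CDK inhibitor and quiescence genes 7 rose and 7 fell with E2 (22.3% and 21.5% of all genes). Of 12 core histone genes, which this array measures through few probe sets, 7 fell and 2 rose with E2 (21.5% and 22.3% of all genes).

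**Figure D3:**
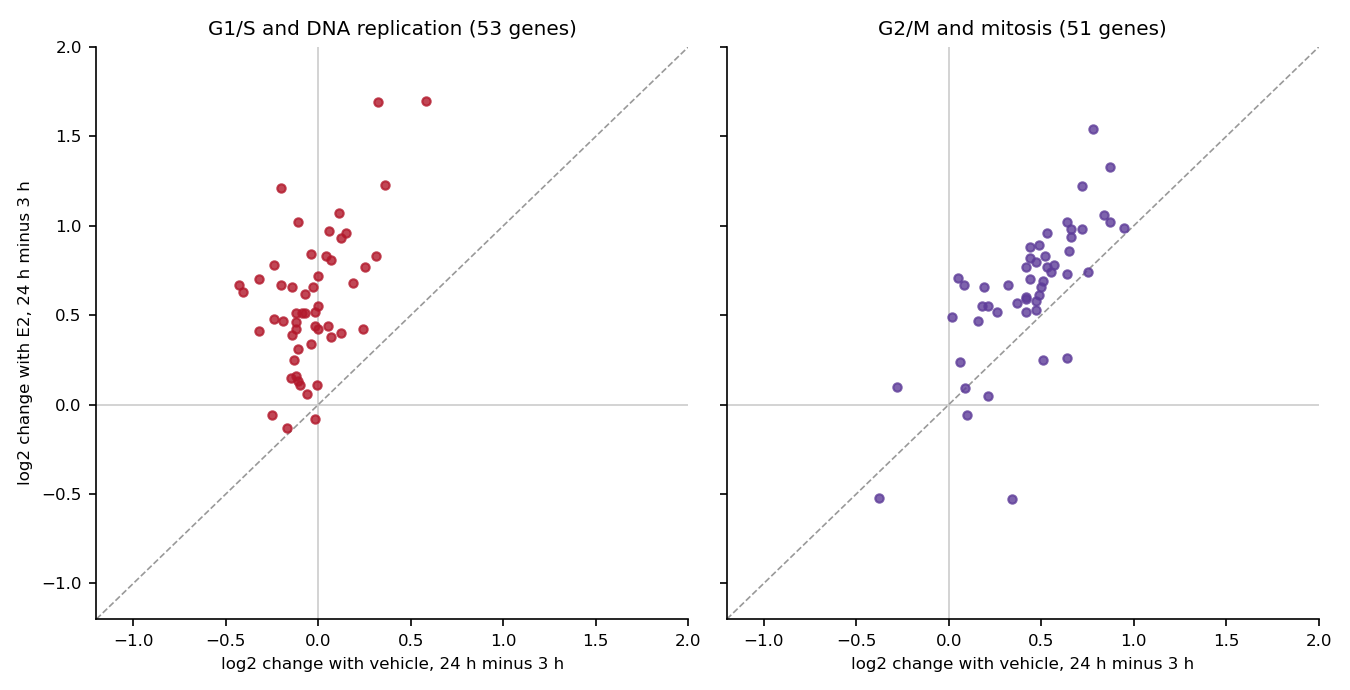
Log2 change from 3 h to 24 h with E2 (vertical axis) against that with vehicle (horizontal axis), 1 point per gene, for 53 G1/S genes (left) and 51 G2/M genes (right); the dashed line marks equal changes. The G1/S points have a median of 0.51 with E2 and -0.06 with vehicle, and the G2/M points 0.69 and 0.47.

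The promoters of these lists are shown for the letters known to mark them: E2F factors read TTTCGCGC or TTTGGCGC in many replication genes, and mitotic genes often hold TTTGAA (the CHR element) with CCAAT. The windows, from RefSeq on GRCh38.p14, run from 250 bases before the start of a gene to 50 after it, and 9563 of the 11963 genes had one. On either strand, E2F letters stood in 13 of 45 G1/S windows (28.9%), 4 of 43 G2/M windows (9.3%) and 175 of all windows (1.83%). The CHR letters stood in 2 (4.44%), 29 (67.4%) and 1050 (11%), and CCAAT in 23 (51.1%), 33 (76.7%) and 3567 (37.3%). The 4 stretches below are of the 150 bases before the start, 5′ to 3′ on the gene's strand. They are examples, 2 from each list, with the letters inside the printed bases. Other members with the letters in their window may have a smaller p. Capitals mark the E2F letters in POLA1 and MCM6 and the CHR letters in ASPM and KIF23, on either strand. A match that overlaps an earlier one is not marked. The letters are a description, and no binding was measured.
POLA1, chrX:24693768-24693917, plus strand: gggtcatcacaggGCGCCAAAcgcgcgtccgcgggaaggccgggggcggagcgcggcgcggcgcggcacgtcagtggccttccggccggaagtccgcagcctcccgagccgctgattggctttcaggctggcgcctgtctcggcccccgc
MCM6, chr2:135876444-135876593, minus strand: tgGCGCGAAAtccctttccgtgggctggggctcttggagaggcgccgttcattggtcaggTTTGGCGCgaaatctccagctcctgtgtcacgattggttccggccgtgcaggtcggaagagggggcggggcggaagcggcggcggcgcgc
ASPM, chr1:197146670-197146819, minus strand: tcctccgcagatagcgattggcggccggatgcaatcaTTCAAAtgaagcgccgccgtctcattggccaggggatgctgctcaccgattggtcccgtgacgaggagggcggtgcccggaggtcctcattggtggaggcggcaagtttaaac
KIF23, chr15:69414199-69414348, plus strand: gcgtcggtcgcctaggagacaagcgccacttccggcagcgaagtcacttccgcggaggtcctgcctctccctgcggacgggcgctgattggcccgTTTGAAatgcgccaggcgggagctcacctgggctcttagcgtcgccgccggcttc

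POLA1, the catalytic subunit of DNA polymerase alpha, rose by 0.83 ± 0.04 with E2 and by 0.31 with vehicle. MCM6, whose stretch has the E2F letters capitalised 2 times, rose by 0.63 ± 0.03 and fell by 0.41 with vehicle. A further match in its stretch, GCGCGAAA, overlaps the capitalised TTTGGCGC and was not counted. KIF23, a motor protein of cytokinesis on a probe set of a kind that can match several transcripts, rose by 0.88 ± 0.04, and by 0.44 with vehicle. The pair with CHR letters therefore rose in both arms, and of the pair with E2F letters MCM6 did not.

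The luminal transcription factors GATA3 and FOXA1 rose from a trough. GATA3, which sets luminal identity, read 11.43, 11.54, 11.60 and 11.66 at 3 h and 13.13, 13.14, 13.14 and 13.08 at 24 h, a rise of 1.57 ± 0.04 (2.96-fold, adjusted p = 1e-16). It did not reach its baseline mean of 13.54, all 3 of its probe sets rose, and the vehicle change was 0.01. FOXA1, which opens chromatin for the estrogen receptor, read 10.28, 10.36, 10.37 and 10.74 at 3 h and 11.22, 11.21, 11.22 and 11.22 at 24 h. Array D was the highest by 0.40 at 3 h, the late arrays were nearly equal, and the rise was 0.78 ± 0.06, or 0.88 without the D arrays.

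Of 16 luminal transcription factors 9 rose and 4 fell with E2 (22.3% and 21.5% of all genes; median 0.15), and 7 rose and 3 fell with vehicle (median 0.06). TFAP2A rose by 0.68 ± 0.04, with 2 of its 3 probe sets called. DLX2, a homeobox gene, read 5.78, 5.63, 5.36 and 5.60 at 3 h, all dim, and 7.26, 7.32, 7.22 and 7.15 at 24 h, a rise of 1.65 ± 0.07 with 1 of 2 probe sets called. TWIST1, a mesenchymal factor, rose by 1.10 ± 0.04, whereas SNAI1, another, fell by 1.16 ± 0.11 back onto its baseline. Both were thus moving toward their baseline level.

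Receptors and coregulators of steroid signalling rose in 10 of 19 cases and fell in 3 with E2 (22.3% and 21.5% of all genes; median 0.09), and rose in 9 and fell in 2 with vehicle (median 0.10). ESR1 rose by 0.39 ± 0.03 on its brightest probe set, to a level of 13.39, and 6 of its 9 probe sets were called higher and 0 lower. It rose by 0.27 with vehicle. NR3C2, the mineralocorticoid receptor, read 6.65, 6.47, 6.64 and 6.42 at 3 h and 8.15, 8.12, 8.01 and 7.97 at 24 h, a rise of 1.52 ± 0.05 back to its baseline arrays. NCOA2, a coactivator of steroid receptors, rose by 0.60 ± 0.04 on all 4 of its probe sets.

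Known estrogen-induced genes of ductal cancer lines were divided at 24 h against 3 h: of 31, 9 rose and 16 fell (22.3% and 21.5% of all genes), with a median of -0.15. With vehicle 9 rose and 12 fell, with a median of -0.07. PDZK1 and CTSD (0.83 ± 0.04) rose further, and MYC and HSPB8, a small heat shock protein gene (-0.69 ± 0.04), fell. HSPB8 also fell with vehicle, by 0.54, and the difference between its changes passed at only -0.15. GREB1, an estrogen receptor cofactor, read 11.92, 11.74, 11.70 and 11.81 at 3 h and 11.86, 11.85, 11.95 and 11.89 at 24 h. These arrays overlapped, the change of 0.09 ± 0.07 did not pass (adjusted p = 0.3), and both times lay above the baseline of 10.48. Of its 3 probe sets 1 was called lower, and the mean of the 3 changed by -0.24. GREB1 fell by 0.62 with vehicle, and the difference between the changes passed at 0.71. TFF1, trefoil factor 1, rose by 0.09 ± 0.02 near the top of the scale at 13.63. PGR, the progesterone receptor, was dim, and its change of -0.19 ± 0.14 did not pass. Of 19 genes repressed by estrogen in ductal lines, 10 rose and 6 fell with E2 (median 0.13), and 10 rose and 2 fell with vehicle (median 0.13).

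In the WNT pathway, 5 of 30 genes rose (22.3% of all genes), 5 fell (21.5%) and 13 were dim. The ligand gene WNT4 fell by 0.74 ± 0.06 and the receptor gene FZD7 by 0.70 ± 0.04, and both remained above their baselines of 7.32 and 10.33. CDH1 fell by 0.52 ± 0.05 on both its probe sets, to a level above its baseline of 8.96. Over 25 adhesion and junction genes 6 rose and 9 fell (22.3% and 21.5% of all genes).

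Protein folding genes parted by compartment. Of 26 genes of folding in the endoplasmic reticulum, 16 rose and 2 fell with E2 (22.3% and 21.5% of all genes; median 0.13), against 3 and 14 with vehicle (median -0.13). CALR, the lectin chaperone calreticulin, whose probe set may cross-hybridise, rose by 0.41 ± 0.04, PDIA4, a disulfide isomerase, by 0.35 ± 0.03 and HSPA5, the main chaperone BiP, by 0.26 ± 0.03. HSPA5 read 12.38, 12.39, 12.32 and 12.31 at 3 h and 12.65, 12.62, 12.60 and 12.56 at 24 h, so that a small step was larger than the spread. Of 20 cytosolic chaperone genes 16 fell and 2 rose (21.5% and 22.3% of all genes), with a median of -0.30. With vehicle 13 fell and 0 rose (12.8% and 16.1% of all genes), with a median of -0.14. HSPH1, an HSP110 chaperone, fell by 0.64 ± 0.05, the co-chaperone gene BAG3 by 0.49 ± 0.03 and HSPB1 by 0.37 ± 0.03. For HSPB1 the vehicle change of -0.28 was not distinct from it (adjusted p of the difference = 0.079).

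Sterol genes differed between E2 and vehicle more than they changed with E2. Of 22 cholesterol genes, 9 rose and 2 fell with E2 (22.3% and 21.5% of all genes; median 0.04), while with vehicle 2 rose and 14 fell (median -0.27). The difference passed and was positive for 15 and negative for 1 (16.5% and 17.8% of all genes), with a median of 0.30. ACAT2 rose by 0.43 ± 0.03 with E2 and fell by 0.42 with vehicle, FDPS by 0.37 and 0.27, and EBP by 0.32 and 0.32, all of them enzymes of the sterol route. INSIG2, which restrains it, rose by 0.69 ± 0.04 with E2 and by 0.68 with vehicle. Of 41 oxidative phosphorylation genes 20 rose and 3 fell by small amounts (median 0.06; 3 and 8 with vehicle), and of 26 proteasome genes 1 rose and 14 fell (median -0.09; 0 and 5 with vehicle). Ribosome biogenesis, a set of 30, had 4 risers and 12 fallers with E2 and 0 and 17 with vehicle. Of 31 genes of the amino acid response 6 rose and 14 fell (median -0.08; 4 and 11 with vehicle), and of 14 fatty acid synthesis genes 5 rose and 5 fell. Of 18 p53-linked genes 8 rose and 6 fell, and of 14 mesenchymal transition genes 4 rose, 3 fell and 5 were dim. Over all genes 22.3% rose and 21.5% fell with E2, and 16.1% rose and 12.8% fell with vehicle.

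Interferon response genes fell with E2 in 14 of 36 cases and rose in 2 (21.5% and 22.3% of all genes), with a median of -0.10. With vehicle 3 fell and 8 rose. OAS1, an antiviral enzyme that senses double-stranded RNA, read 10.57, 10.58, 10.67 and 10.54 at 3 h and 9.18, 9.10, 9.05 and 9.27 at 24 h. It fell by 1.44 ± 0.05 (2.72-fold, adjusted p = 6.6e-15) further below its baseline of 11.24, and rose by 0.36 with vehicle. IFIT5 fell by 1.00 ± 0.08, the exonuclease gene ISG20 by 0.87 ± 0.07 and the peptide transporter gene TAP1 by 0.38 ± 0.03. ISG20 fell by 0.70 with vehicle too. Of 16 BCL2 family genes 3 rose and 6 fell with E2 (22.3% and 21.5% of all genes). With vehicle 7 rose and 1 fell (16.1% and 12.8% of all genes).

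Genes that metabolise steroids and foreign compounds fell in 16 of 38 cases and rose in 7 with E2 (21.5% and 22.3% of all genes), and fell in 12 and rose in 5 with vehicle. NQO1, a quinone reductase, fell by 1.13 ± 0.02 on all 3 of its probe sets, and the ketosteroid reductase gene AKR1C2, whose close relatives can share signal, by 1.07 ± 0.03. Both also fell with vehicle, NQO1 by 0.36 and AKR1C2 by 0.69, and for both the difference between the changes passed. CYP1A2, a P450 enzyme whose probe set may also detect its relatives, read 10.00, 10.05, 10.20 and 10.16 at 3 h and 8.63, 8.49, 8.42 and 8.61 at 24 h. Its fall of 1.57 was matched by 1.56 with vehicle. CYP1B1, which hydroxylates E2, fell by 1.43 ± 0.04 on all 4 of its probe sets, and it fell by 2.54 with vehicle.

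**Figure D4:**
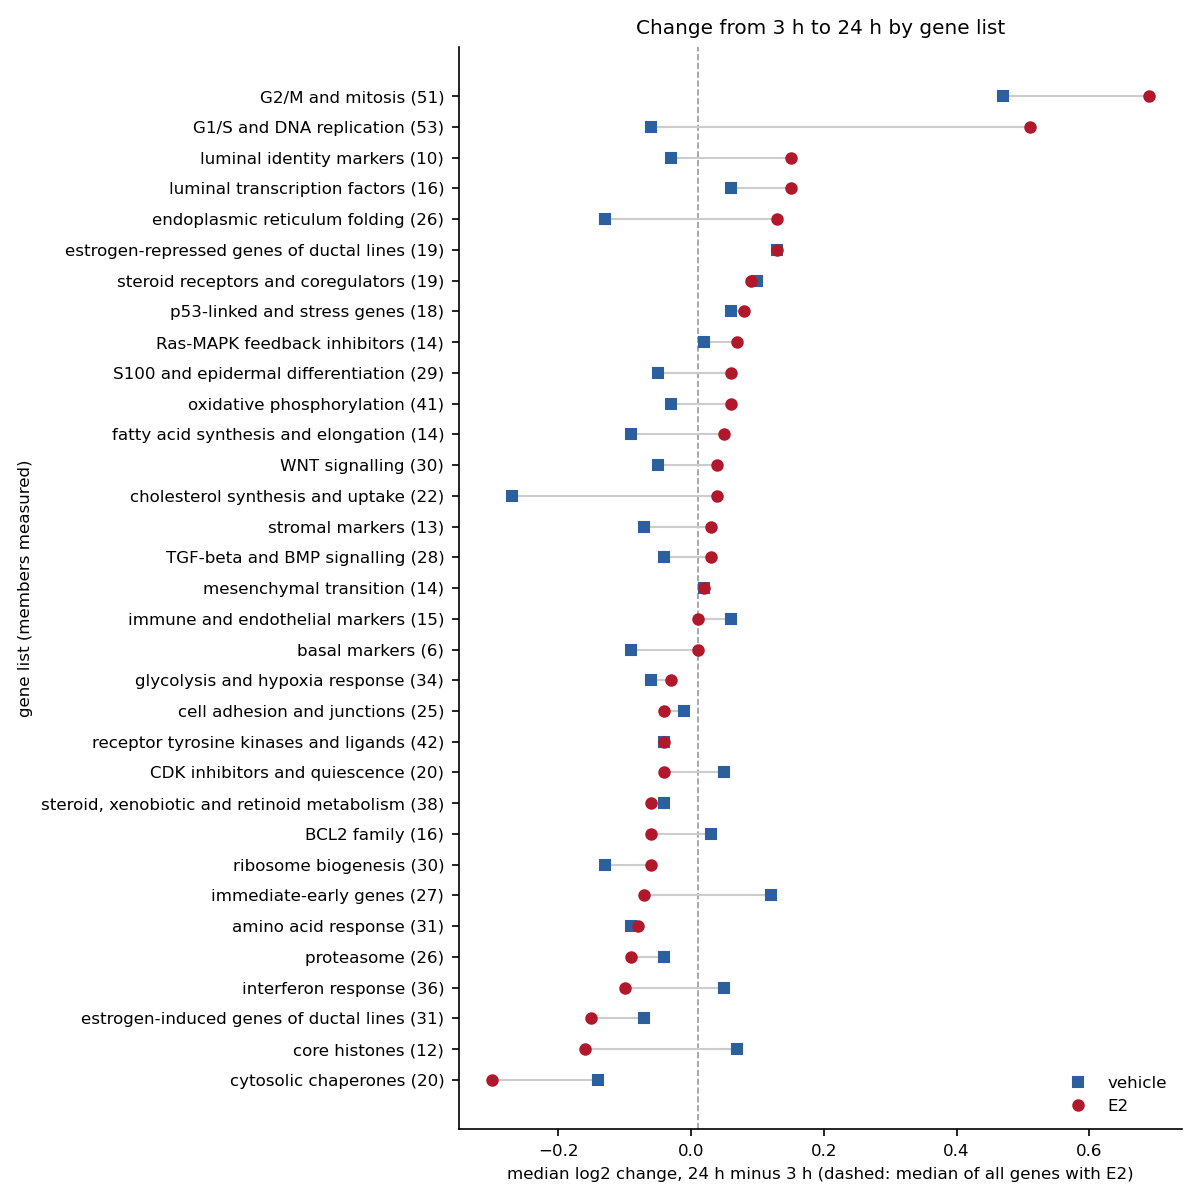
Median log2 change from 3 h to 24 h (horizontal axis) of each of the 33 gene lists (vertical axis, members measured in brackets), with E2 and with vehicle; the dashed line is the median of all genes with E2, 0.01. G2/M and G1/S stand highest with E2 at 0.69 and 0.51, and cytosolic chaperones lowest at -0.30.

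Vehicle arrays passed through the same 21 hours without E2, and share no array with the E2 comparison. With vehicle 3458 genes changed (28.9%), of which 97 rose (0.811%) and 103 fell (0.861%) by at least 1.5-fold. Of the 2666 genes that rose with E2, 914 also rose with vehicle (34.3%), 346 fell (13%) and 1406 were not called (52.7%). Of the 2570 that fell with E2, 695 also fell (27.0%), 455 rose (17.7%) and 1420 were not called (55.3%). Across all genes the E2 and vehicle changes correlated with r = 0.19, where genes are not independent replicates. The difference between the changes was called for 4100 genes (34.3%), and was at least 1.5-fold and positive for 350 (2.93%) and negative for 417 (3.49%).

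Some genes changed without E2 by a similar amount or more. KLF4, a zinc-finger factor, fell by 0.95 in both arms. CEMIP, a hyaluronan-binding protein, fell by 1.17 with E2 to a dim level and by 1.37 with vehicle, and the cystine transporter gene SLC7A11 by 0.87 and 1.78. The death ligand gene TNFSF10 rose by 1.16 and 1.17 and AVIL by 1.02 and 0.91, each without a called difference between the arms. GPR19, an orphan receptor gene, rose by 1.29 with E2 and less, by 0.90, with vehicle (difference 0.39, adjusted p = 0.0078).

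Other genes moved in opposite directions. ATRNL1 rose by 1.86 ± 0.08 with E2 and fell by 0.75 with vehicle, the growth factor gene PDGFC by 1.17 and 0.62, RND3 by 0.81 and 1.12, and the GTPase gene GEM by 0.68 and 0.98. In reverse, TSKU, a secreted inhibitor of several growth signals, fell by 1.12 ± 0.05 with E2 and rose by 0.85 with vehicle. TMEM45A fell by 1.15 and rose by 0.85, CX3CR1, a chemokine receptor, fell by 1.26 and rose by 1.02, and STC2, a secreted stanniocalcin, fell by 0.60 and rose by 1.07. STC2 read 10.93, 11.10, 11.05 and 11.02 at 3 h and 10.44, 10.41, 10.41 and 10.42 at 24 h with E2, in groups well apart. ALB fell by 1.08 to a dim level and rose by 1.17 with vehicle.

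The D arrays of both E2 times deviated together from their groups. For each array, the deviation of every gene was taken from the mean of the other 3 arrays of its group. Across all genes these deviations correlated at 0.37 between D at 3 h and D at 24 h, at 0.251 between the A arrays, 0.021 between B and 0.007 between C. Pairs of different letters ran from -0.357 to 0.113. The deviations within a group cancel for each gene, so these correlations depend on each other. The value for D was 0.422 without the dimmest 25% of genes and 0.275 after cyclic loess. With the deviations of the vehicle D arrays those of the E2 D arrays correlated at -0.193 to 0.013, and with the baseline D array at 0.159 and 0.225. Genes are not independent here, and only the A and D correlations were over 0.1, so the letters were not used to pair the arrays.

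In both D arrays 64.7% of genes were off in the same direction. Bright genes tended to read low: deviation and level correlated at -0.287 at 3 h and -0.25 at 24 h. The A arrays had a trend of the opposite sign, 0.158 at 3 h and 0.27 at 24 h, and the other E2 arrays lay between -0.059 and 0.099. The deviations within a group cancel for each gene, so a trend on D entails an opposite one among the other arrays. On the D arrays the SD of levels was 2.416 and 2.404, beside 2.423 to 2.458 on the other E2 arrays. The median size of the deviation was 0.0789 and 0.0687, beside 0.0484 to 0.0646 on the other E2 arrays, and array weights were 0.459 and 0.535, the lowest of the 20. Signal ratios of 3′ to 5′ control probe sets of ACTB were 0.343 to 0.419 over all 8 E2 arrays on the log2 scale. What sets the D arrays apart was not tested.

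Single genes were rarely far off: 28 genes lay at least 0.3 from the other arrays in both D arrays in the same direction, and 2 in opposite directions. NXPE3 was 0.46 and 0.58 low and MLLT3, a subunit of the super elongation complex, 0.37 and 0.40 low. EXO5, an exonuclease gene, NDP, a ligand of frizzled receptors, and RFPL1S were low by at least 0.3 on dim probe sets. HAMP, the iron hormone hepcidin, was 0.46 and 0.39 high, and NGB, neuroglobin, 0.37 and 0.34 high. GRIK1, TSSK1B and PKD1L1-AS1 were also high, all of them dim. For HAMP, NGB, GRIK1, TSSK1B and PKD1L1-AS1 the change between the E2 times did not pass, with adjusted p from 0.32 to 0.85 in the limma fit. Of the G1/S genes 38 of 53 were below in both D arrays, and of the G2/M genes 35 of 51, beside 4555 of all 11963 genes. Both lists are brighter than most genes, with median levels of 9.0 and 8.71 at E2 3 h against 7.93 over all. Bright genes tended to read low on the D arrays, and the part this has in the counts was not tested.

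**Figure D5:**
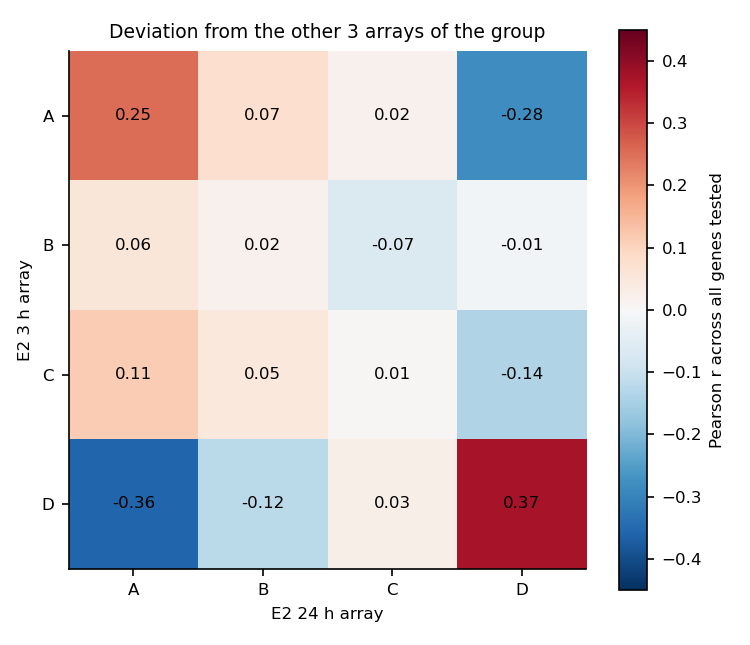
Pearson correlation across all genes tested, by colour and number, between the deviations of each E2 3 h array (vertical axis) and each E2 24 h array (horizontal axis) from the other 3 arrays of its group. The D with D cell is the highest, at 0.37, and A with A follows at 0.25.

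Without both E2 D arrays 4894 genes were called, 2456 higher and 2438 lower. Of the original calls 4664 were kept in the same direction, 572 were lost, 230 were gained and 0 reversed. Without them G1/S had 46 up and 0 down (median 0.51), G2/M 45 up and 2 down (0.65) and cytosolic chaperones 2 up and 16 down (-0.29), the counts found with all arrays. Folding in the endoplasmic reticulum had 15 up and 1 down, beside 16 and 2 with all arrays.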

How the data were processed

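Affymetrix human expression arrays were deposited as log2 values, 1 per probe set, made with RMA and affy per the submitters' processing notes. Versions and parameters of that step are not given in the sources used here. RMA scales all arrays to a common distribution, which hides any change in how much RNA a cell holds. Control probe sets (62 of 22277) were left out. Of the rest, 19064 had 1 symbol in the platform annotation, 1043 several and 2108 none, and those without 1 symbol stay unnamed here. Where a gene had several probe sets, the one brightest on average over the 20 arrays was taken, which gave 11963 genes, 4310 of them with several probe sets. The label "may cross-hybridise" is read from the probe set's name.

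The test was limma's (version 3.58.1, R 4.3.3), by lmFit with 1 mean for each of the 5 groups, unblocked, over the 20 arrays at once, then eBayes, two-sided. The contrasts were E2 at 24 h minus E2 at 3 h, the same for vehicle, and the difference between them. P-values were adjusted by Benjamini-Hochberg over all genes. Lists were counted and not tested. The members, the 33 lists and the naming rule were chosen with earlier results of these data known.

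The rule names the 15 largest changes in each direction with arrays apart, per list up to 4 members of smallest p and up to 2 that did not pass, 16 fixed genes, the 5 largest changes of each kind shared with or opposed to vehicle, 5 genes in each direction off in both D arrays, and 4 of each order class. It gave 250 genes, and the text names part of them. Genes outside it are said to be so, beside the motif examples and the markers.

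On simulated data for E2 at 24 h against 3 h over 11963 genes, the fit recovered 76% of genes changed 1.25-fold, 98% at 1.5-fold and 100% at 2-fold and 4-fold, 50 genes each. Of 194 genes called, 7 were unchanged. The simulated spread was independent between genes, and far fewer genes were changed than were called in the data. These shares therefore need not hold for the data.

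The replicate letters were not used to pair the E2 arrays, because deviations of B and C correlated at only 0.021 and 0.007. Those of A and D correlated at 0.251 and 0.37, and whether a letter marks a shared culture or day was not tested. Alternatives changed which arrays were fitted, added a replicate block or array weights, rescaled the arrays, dropped dim genes, chose probe sets or the variance prior otherwise, moved the threshold, or left out single arrays.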

Additional observations from a re-analysis of the deposited data

Results flagged for a closer look

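Single arrays stood apart from the other 3 of their group by Dixon's ratio in 11 of 222 groups examined (111 genes at both E2 times), and chance gives about 1 in 20. Array D held 6 of the 10 at 24 h and the 1 at 3 h. At 24 h it was the lowest for GDF15 at 5.82, EGR3 at 6.82, NXPE3 at 5.38 and MLLT3 at 7.23, and the highest for PDIA4 at 11.18 and NGB at 6.84. At 3 h it was the lowest for CACNA2D3 at 7.52. MLLT3, NXPE3 and NGB had been chosen because they deviate on both D arrays. The others at 24 h were array B of S100A7, highest at 11.82, array C of RACGAP1, highest at 11.39, and array A of TCN1 at 8.40 and of GADD45B at 8.11, both highest.

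In 35 of the 111 genes the change from 3 h to 24 h passed in opposite directions with E2 and vehicle, and the difference between the changes passed as well in the limma fit. Of these, 10 were named because their changes oppose those of vehicle, so the share is no estimate. Over all 11963 genes, 346 rose with E2 and fell with vehicle, and 455 did the reverse. The values below are E2 change minus vehicle change on the log2 scale. Among genes that rose with E2 they were 3.40 for S100A7, 2.53 for PDZK1, 1.75 for AGR2, 1.55 for MET, 0.93 for SEMA3C and 2.81 for DOCK10. ELOVL2, a fatty acid elongase, had 0.84. Transcription factors that rose with E2 had 1.04 for FOXA1, 0.89 for TFAP2A and 2.22 for DLX2, and the receptor gene TGFBR2 had 1.55. For sterol enzymes the differences were 0.85 for ACAT2, 0.64 for FDPS and 0.64 for EBP, and for folding enzymes 0.48 for HSPA5 and 0.50 for PDIA4.

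Further positive differences were 2.61 for ATRNL1, 1.79 for PDGFC, 1.93 for RND3, 1.67 for GEM and 1.40 for SPINK4. The negative differences belonged to genes that fell with E2 and rose with vehicle. They were -2.36 for GADD45B, -3.03 for CACNA2D3, -2.97 for SERHL2, -2.86 for ATP8A2, -1.45 for FOSL2, -1.13 for PFKFB3 and -1.81 for OAS1. ALB had -2.25, TSKU -1.98, TMEM45A -2.0, CX3CR1 -2.28, SLC14A1 -2.25 on a dim probe set, STC2 -1.67 and NXPE3 -1.41. CACNA2D3, ALB, CX3CR1 and NXPE3 were dim at 24 h with E2, and DOCK10 and DLX2 at 3 h.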

How the results depend on the processing

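With E2, 2666 genes rose and 2570 fell, and leaving out single E2 arrays gave 2495 to 2619 and 2361 to 2608. With a replicate block on the letters, which were not used to pair the arrays in the main fit, 2674 rose and 2541 fell. Asking for at least 1.5-fold left 383 higher and 369 lower with E2, 97 and 103 with vehicle, and 350 positive and 417 negative differences. Testing every probe set separately gave 3894 lower with E2 and 2329 lower with vehicle, because more features were tested. The other alternatives kept each count within 1.5 times. The median change of all genes moved by under 0.1 with scaling.

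Taking the mean of all probe sets of a gene turned COL1A1 to -0.19, GREB1 to -0.24 and RFC5 from -0.13 to 0.37, and ended the call of RET at -0.04. The list medians near 0 changed sign in some settings: basal and immune markers to -0.02 with cyclic loess, TGF-beta to -0.02 and WNT to -0.01 with the mean of probe sets, fatty acid synthesis to -0.01 without dim genes, and mesenchymal genes to -0.01 without the D arrays. For stromal markers the value without the D arrays, or without D at 24 h alone, was -0.01, and for basal markers without A at 3 h it was -0.05. The causes were not tested. Detection calls were not used here, so the size of changes of dim genes is less certain.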
